A study of Drosophila melanogaster with 16 samples.

Results

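Amylases and lysosomal alpha-mannosidases are 2 families of sugar-cleaving enzymes, and 9 of their genes were followed here across RNA-seq libraries of whole Drosophila larvae. They are Amy-p, Amy-d and Amyrel of the amylase family and LManI, LManII, LManIII, LManIV, LManV and LManVI of the alpha-mannosidase family. All 9 were found among the 9982 genes of the table and all 9 passed the filter on low values that left 9950 genes to test, Amy-d only through the larvae on low sugar. The genes were chosen by their lower normalized CPM on high sugar than on low sugar in control larvae, so that change is given below as a description, without a test.

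Alpha-amylase is secreted into the gut lumen, where it cuts starch and glycogen into maltose and short glucan chains that maltases then split into glucose. Amylase genes of Drosophila are a classical case of glucose repression, in which sugar in the food lowers the amount of their transcript in the midgut, and the Activin ligand Dawdle takes part in that repression. Acid alpha-mannosidases work at the low pH of the lysosome and remove mannose from the glycan chains of glycoproteins, and the fly genome holds a small family of them.

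The study asked how the GATA factor Grain, the product of grn, takes part in sugar-responsive gene expression. The groups were larvae labelled grn RNAi on a high sugar diet (HSD), larvae labelled grn RNAi on a low sugar diet (LSD), control larvae on HSD and control larvae on LSD, with 4 libraries in each and 20 pooled larvae in each library. Both diets held 10% yeast, HSD held 15% sugar in addition, and all larvae lived on LSD until they were moved to fresh HSD or LSD for 8 h at 48 h after egg laying. By the study's methods, Tub-GAL4, a driver active in all tissues, expressed the hairpin against grn in the first genotype and was crossed to a TRiP control line in the other, 1 RNAi line being used. The methods place the larvae in the 2nd instar, the stage field of the labels gives the 3rd, and the genotype field names wild type for LSD and an erk7 mutant for HSD, so the groups follow the sample titles. The study calls the 4 libraries of a group biological replicates. No label says whether they came from separate cultures, and if they did not, the p-values measure only the spread between these libraries.

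Levels of grn, the gene that the RNAi targets, exceeded the control levels under the grn RNAi label. In libraries labelled grn RNAi, grn stood at 219 ± 10.2 normalized CPM on HSD (SD, n = 4) and at 239 ± 14.7 on LSD, against 20.5 ± 2.66 in control libraries on HSD and 18.1 ± 2.63 on LSD. The study reports that grn expression was reduced by this RNAi line. The source of the grn reads counted here was not tested. The groups keep their labels, and every direction given below for a genotype is one between libraries labelled grn RNAi and control libraries. The 16 libraries held 24038848 to 32644817 reads. Of 10 midgut genes used as a check of the tissue, none was at 0 in a group, and none of 6 salivary gland genes was among the genes analysed.

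Positions are those of release 6 of the fly genome. LManIII, LManIV, LManV and LManVI follow each other on the minus strand of chromosome 2L between 8765273 and 8781252, a cluster of 15.98 kb with no other gene inside. LManI, on the minus strand from 10452677 to 10457241, and LManII, on the plus strand from 10457658 to 10462472, are neighbours on the same chromosome with 0.416 kb between them. On chromosome 2R, Amy-p (minus strand, 17118636 to 17120303) and Amy-d (plus strand, 17124764 to 17126369) point away from each other across 4.46 kb. Amyrel lies by itself on that chromosome (minus strand, 16651095 to 16652699). Amy-p and Amy-d are near-identical copies, and the authors discarded reads with a mapping quality under 10. Reads that fit both copies may thus be missing from both genes. The split of reads between the pair is therefore uncertain, and their sum is given beside the separate values. The separate values, the sum and the levels and ranks per kb may all be too low for this pair.

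The levels of the 9 genes differed widely. Per kb of exon, the highest mean of larvae labelled grn RNAi on HSD was that of LManII, at 68.1 ± 2.78 normalized CPM per kb (SD, n = 4), followed by LManV at 13.9 ± 1.30 and LManVI at 11.2 ± 2.92. Amy-d was the lowest there at 0.145 ± 0.108. In control larvae on LSD the order was another one, with LManVI first at 442 ± 97.0 per kb, then LManV at 325 ± 56.7 and LManII at 137 ± 11.9. LManIII followed at 33.6 ± 9.06, Amy-p at 13.1 ± 7.75, LManI at 11.3 ± 1.81, LManIV at 7.36 ± 1.41, Amyrel at 7.34 ± 3.62 and Amy-d at 2.17 ± 1.16. In that group the libraries of neighbours in the order overlapped for LManVI and LManV, for Amy-p and LManI, for LManIV and Amyrel and for Amyrel and Amy-d. LManII thus stood first per length in larvae labelled grn RNAi on HSD, without overlap with LManV, and below LManVI and LManV, without overlap, in control larvae on LSD.

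**Figure D1:**
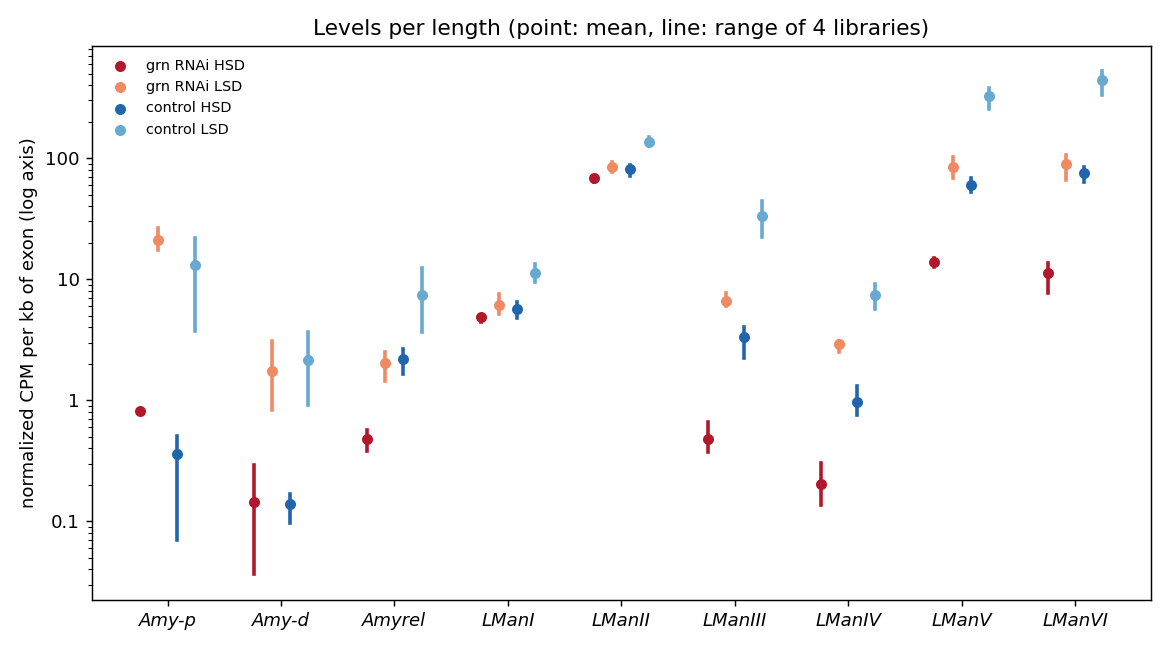
Level of each gene per kb of exon (normalized CPM per kb, log axis) in the 4 groups, with the mean of 4 libraries as a point and their lowest to highest value as a line. LManII stays within 68.1 to 137 per kb between the group means, while LManVI spans 11.2 to 442 per kb.

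HSD was first set against LSD in larvae labelled grn RNAi, whose libraries are not those of the change that chose the genes. The choice was, however, made with results of all 16 libraries known. The counts and p-values for this diet change may therefore not be independent of the choice either. Amy-d, which passed the filter only through the LSD groups where it is high, was left out of the counts. Of the other 8 genes, 7 fell on HSD, against 23.3% of all 9950 genes tested, and none rose, against 18.3% (0 at an unadjusted p under 0.05 and 0 with edgeR or DESeq2). The libraries of both diets did not overlap for any of these 8, with HSD always lower, as it was for 25.9% of all genes. The median log2 fold change was -2.79 over the 8 genes and -0.02 over all genes. Fewer cells of a type and less RNA per cell cannot be told apart in whole larvae.

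Amy-p, which codes for alpha-amylase, fell most of the 8 (limma). It stood at 1.38, 1.28, 1.41 and 1.40 normalized CPM in larvae labelled grn RNAi on HSD, against 43.8, 33.1, 34.0 and 28.8 on LSD. The HSD libraries lay close together, at 33 to 48 reads each, and far below every LSD library, which held 890 to 1516. Amy-p averaged 25.5-fold lower on HSD, a log2 change by limma of -4.23 ± 0.40 (SE, adjusted p = 1.12e-06). All such changes are of log2 values with 0.5 added, which understates the change of low genes.

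Amy-d, the second alpha-amylase copy, had 0.17, 0.23, 0.47 and 0.06 normalized CPM on HSD in larvae labelled grn RNAi, from 2 to 12 reads, against 2.89, 1.33, 2.03 and 4.96 on LSD. Its LSD libraries spread more widely than those of Amy-p but all lay above the HSD libraries. The fitted log2 fold change was -2.08 ± 0.34 (SE) and is given as a description without a test, since the filter admitted Amy-d only for its LSD values. The sum of Amy-p and Amy-d was 1.60 ± 0.19 on HSD and 37.8 ± 6.05 on LSD (SD, n = 4). Amyrel, an amylase-related gene whose protein also cleaves starch, had 0.88, 0.74, 0.59 and 0.79 on HSD and 3.12, 2.22, 3.89 and 3.34 on LSD. Its log2 change of -1.53 ± 0.26 (SE, adjusted p = 0.00031 from limma) was the smallest of the amylase genes.

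The 4 clustered alpha-mannosidase genes fell together. LManIII had 1.35, 2.1, 1.45 and 1.2 normalized CPM on HSD in larvae labelled grn RNAi and 21.1, 24.7, 19.2 and 19.2 on LSD. LManIV had 0.40, 0.90, 0.47 and 0.64 on HSD and 9.02, 9.17, 7.41 and 8.59 on LSD. For both of these less abundant genes every HSD library lay far below every LSD library. LManV had 39.9, 46.3, 45.9 and 38.6 on HSD and 264, 312, 257 and 209 on LSD. LManVI had 31.0, 43.3, 42.9 and 24.5 on HSD and 281, 334, 297 and 209 on LSD. The diets stayed far apart for the abundant pair of the cluster as well. The log2 fold changes were -3.43 ± 0.21 for LManIII, -3.05 ± 0.17 for LManIV, -2.59 ± 0.13 for LManV and -2.99 ± 0.20 for LManVI (SE, adjusted p from 1.93e-09 to 3.22e-08 from limma).

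LManI and LManII changed little. LManII had 247, 255, 254 and 233 normalized CPM on HSD in larvae labelled grn RNAi, against 289, 336, 321 and 280.0 on LSD, a log2 change of -0.30 ± 0.08 (SE, adjusted p = 0.0053 from limma). LManI had 14.4, 16.3, 15.8 and 16.3 on HSD and 18.4, 24.5, 20.0 and 16.8 on LSD. Its highest HSD and lowest LSD libraries nearly touched, and its log2 change of -0.32 ± 0.12 did not pass (SE, adjusted p = 0.0502 from limma). It lay so near the threshold that it passed with edgeR (-0.34, adjusted p = 0.044), with DESeq2 (-0.32, adjusted p = 0.034) and without LSD replicate 4 of grn RNAi (-0.40, adjusted p = 0.026). In limma it also passed with the 8 libraries alone (adjusted p = 0.033), with pseudocount 0.1 (0.0495) and with the filter at 5 (0.047). It passed at the same value without control HSD replicate 1 or 4 or control LSD replicate 1 or 3 (adjusted p from 0.035 to 0.047), and was -0.22 without LSD replicate 2 of grn RNAi (adjusted p = 0.16).

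**Figure D2:**
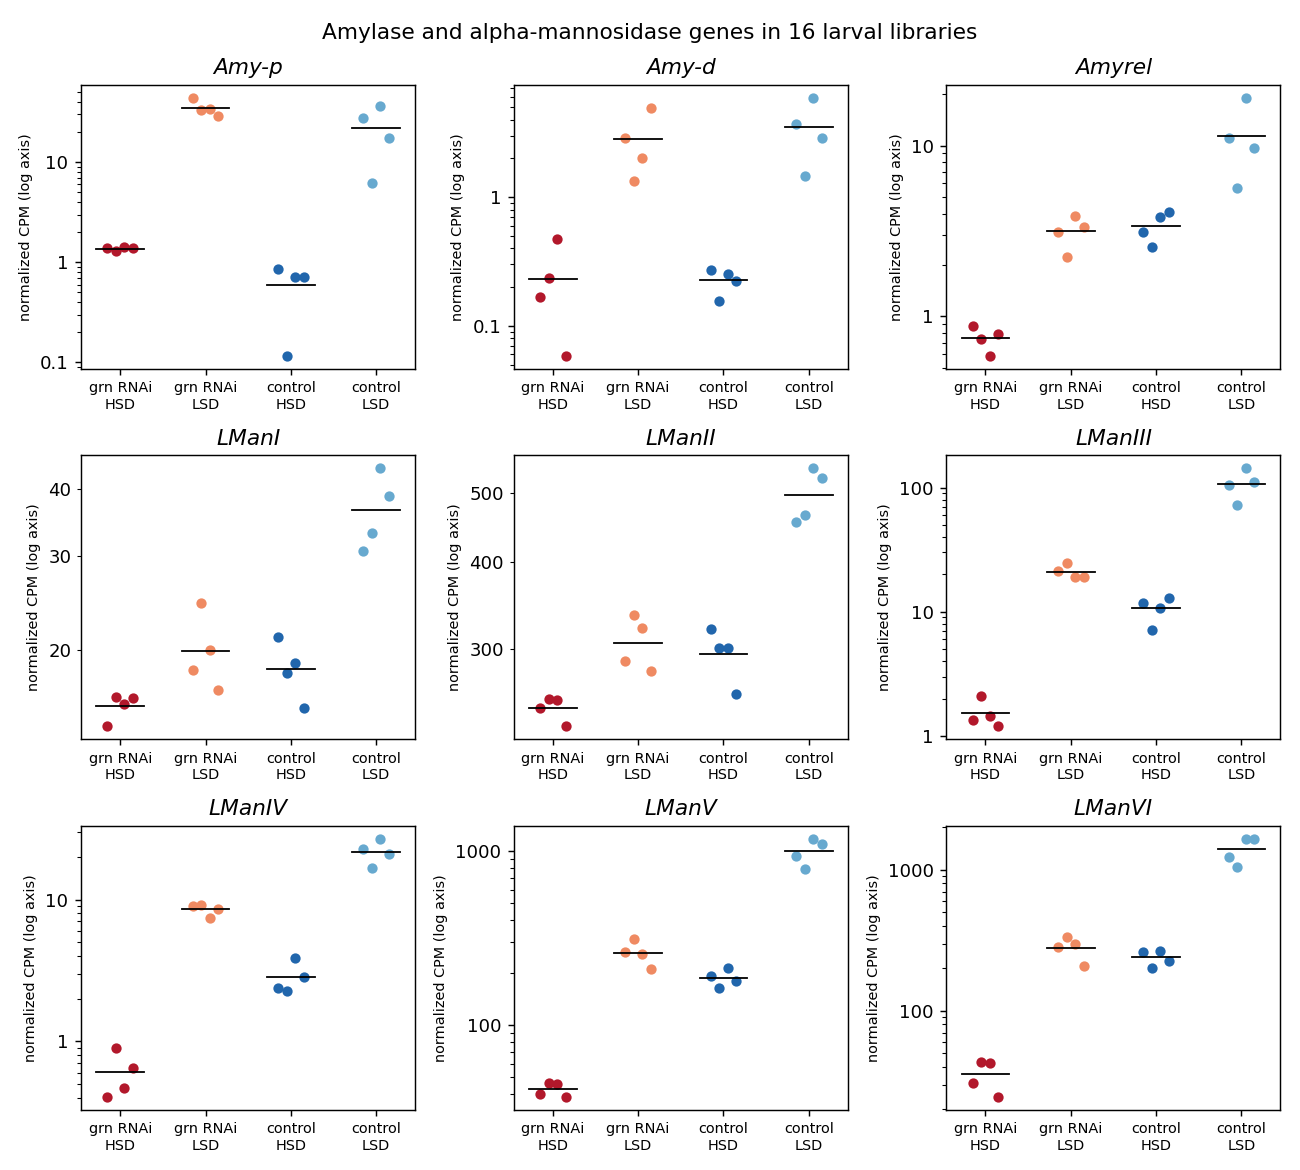
Normalized CPM (log axis) of the 9 genes in each of the 16 libraries, by group, with a point for each library and a line for the mean of 4. In every panel the HSD libraries of larvae labelled grn RNAi lie below their LSD libraries, by 25.5-fold for the means of Amy-p and by 1.24-fold for those of LManII.

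In control larvae, whose change with diet chose the genes, all 9 had lower levels on HSD with no overlap, as 18.1% of all genes did; nothing is read from that count. Amy-p had 0.85, 0.12, 0.71 and 0.71 normalized CPM in control larvae on HSD, from 3 to 22 reads, and 27.4, 6.19, 36.3 and 17.6 on LSD. LManVI had 260.2, 202, 267 and 227 on HSD and 1224, 1054, 1657 and 1655 on LSD. LManV had 191, 162, 213 and 179 on HSD and 933, 785, 1173 and 1102 on LSD. These were the most abundant transcripts of the 9 in control larvae on LSD. Control LSD replicate 2 was the lowest of its group for 7 of the 9 genes and replicate 3 the highest for 9 of 9, and control HSD replicate 2 was the lowest for 7.

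The log2 fold changes with diet stand side by side as follows, in larvae labelled grn RNAi first and in control larvae second. They were -4.23 and -4.16 for Amy-p, -2.08 and -2.33 for Amy-d and -1.53 and -1.51 for Amyrel. For the cluster they were -3.43 and -3.27 for LManIII, -3.05 and -2.74 for LManIV, -2.59 and -2.41 for LManV and -2.99 and -2.53 for LManVI. For the pair they were -0.32 and -0.96 for LManI and -0.30 and -0.75 for LManII. The difference between the genotypes was not tested, since it contains the change that chose the genes.

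**Figure D3:**
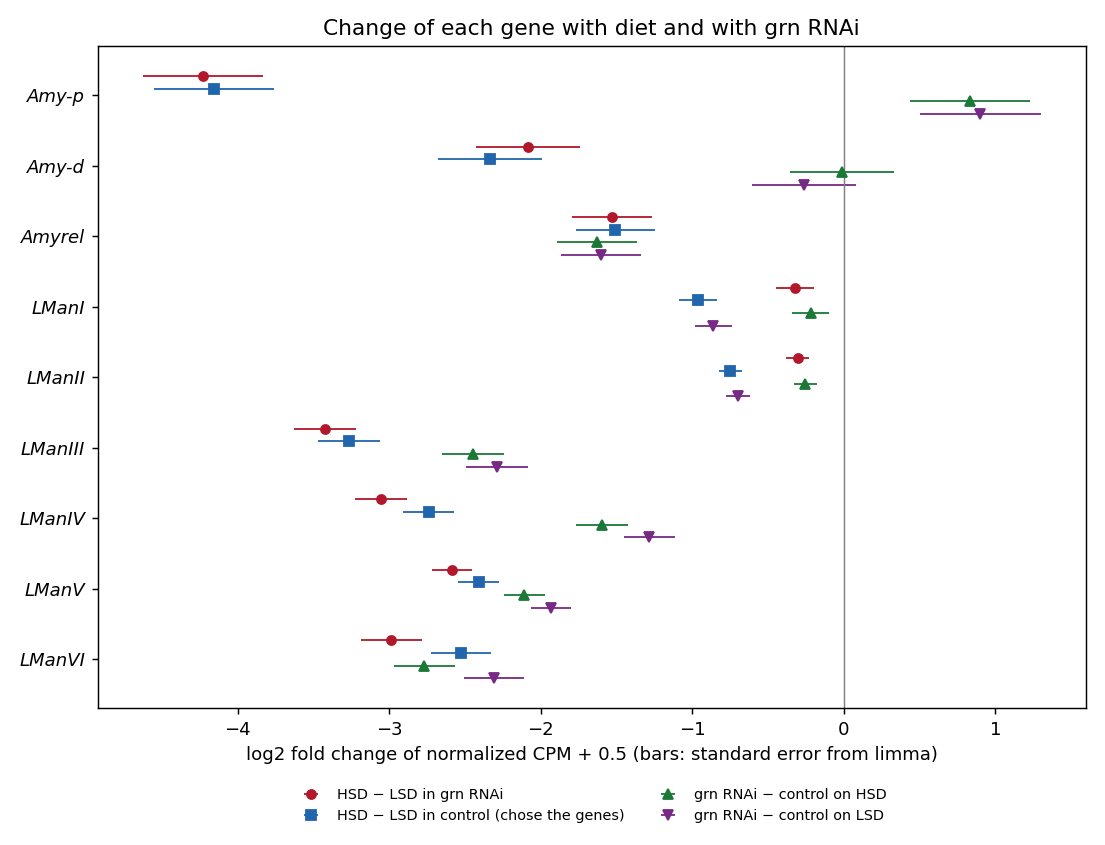
Log2 fold change of each gene (horizontal axis, normalized CPM with 0.5 added, bars for the standard error from limma) for HSD against LSD in each genotype and for larvae labelled grn RNAi against control within each diet. Amy-p is at -4.23 and -4.16 for the diet and at 0.83 and 0.90 for the genotype, while LManVI is below -2 in all 4 comparisons.

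Libraries labelled grn RNAi were then set against control libraries on LSD, a comparison that shares its control libraries with the one that chose the genes. A level high by chance in the control LSD libraries would have favoured both the choice of a gene and a lower value in grn RNAi, so these counts and p-values are not independent of the choice. Of the 9 genes, 7 were lower in grn RNAi, against 27.1% of all genes tested, and the same number had no overlap with grn RNAi lower, against 24.4%. None passed as higher, against 27.1% of all genes (1, Amy-p, at an unadjusted p under 0.05, and 0 with edgeR or DESeq2). The median log2 fold change was -1.28 over the 9 genes and 0.03 over all genes.

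The alpha-mannosidase genes were all among the 7. On LSD, LManVI averaged 280.4 ± 52.6 normalized CPM in grn RNAi and 1398 ± 307 in control (SD, n = 4 each), a log2 change of -2.31 ± 0.20 (SE, adjusted p = 3.56e-07 from limma). LManV averaged 261 ± 42.0 in grn RNAi and 998 ± 174 in control, a log2 change of -1.93 ± 0.13 (SE, adjusted p = 4.32e-08). LManIII averaged 21.1 ± 2.58 and 107 ± 29.0, in the same order, with -2.29 ± 0.21 (SE, adjusted p = 5.11e-07). For these 3 genes the highest grn RNAi library lay under every control library by more than 2-fold. LManIV was at -1.28 ± 0.17, LManI at -0.86 ± 0.12 and LManII at -0.70 ± 0.08 (SE, adjusted p from 3.72e-06 to 5.10e-05 from limma).

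The amylase genes did not move as one group on LSD. Amyrel had 3.12, 2.22, 3.89 and 3.34 normalized CPM in grn RNAi and 11.1, 5.66, 19.0 and 9.68 in control, a log2 change of -1.60 ± 0.26 (SE, adjusted p = 0.00015 from limma). Amy-p averaged 35.0 ± 6.34 in grn RNAi and 21.8 ± 12.9 in control (SD, n = 4 each), and its groups overlapped through control replicate 3 at 36.3. Its log2 change of 0.90 ± 0.40 did not pass (SE, adjusted p = 0.068 from limma). It passed without control LSD replicate 3 (1.23, adjusted p = 0.015) or replicate 1 (1.09, adjusted p = 0.045), and was 0.41 at its lowest with a library left out. Amy-d was at -0.26 ± 0.34 (SE, adjusted p = 0.53 from limma). The sum of Amy-p and Amy-d was 37.8 ± 6.05 in grn RNAi and 25.3 ± 14.8 in control (SD, n = 4 each).

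On HSD, where a low level by chance in the shared control libraries would favour a higher value in grn RNAi, 6 of the 9 genes were lower in grn RNAi, against 21.2% of all genes tested, and 6 had no overlap with grn RNAi lower, against 19.9%. None passed as higher, against 17.9% (0 at an unadjusted p under 0.05, 0 with edgeR and 1, Amy-p, with DESeq2). The median log2 fold change was -1.59 over the 9 genes and 0.01 over all genes. LManVI averaged 35.4 ± 9.22 normalized CPM in grn RNAi and 239 ± 30.2 in control (SD, n = 4 each), a log2 change of -2.77 ± 0.20 (SE, adjusted p = 1.37e-07 from limma). LManV averaged 42.7 ± 3.99 in grn RNAi and 186 ± 21.3 in control, with -2.11 ± 0.13 (SE, adjusted p = 3.84e-08). LManIII averaged 1.52 ± 0.40 and 10.6 ± 2.54, in that order, with -2.45 ± 0.21 (SE, adjusted p = 5.93e-07). LManIV was at -1.59 ± 0.17 (SE, adjusted p = 5.62e-06). No library of grn RNAi reached the level of a control library for any gene of the cluster.

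The remaining genes split on HSD. Amyrel averaged 0.75 ± 0.12 normalized CPM in grn RNAi and 3.39 ± 0.69 in control (SD, n = 4 each), a log2 change of -1.63 ± 0.26 (SE, adjusted p = 0.00022 from limma). LManII was at -0.25 ± 0.08 (SE, adjusted p = 0.017), which did not pass under quantile normalization (-0.03, adjusted p = 0.75), without the authors' scaling (-0.11, adjusted p = 0.26), without grn RNAi HSD replicate 4 (-0.22, adjusted p = 0.052) or without control HSD replicate 1 (-0.21, adjusted p = 0.055). LManI was at -0.22 ± 0.12 (SE, adjusted p = 0.18 from limma). Amy-p had 1.38, 1.28, 1.41 and 1.40 in grn RNAi and 0.85, 0.12, 0.71 and 0.71 in control, 1 of the 9 genes with all grn RNAi libraries higher, as was the case for 18.7% of all genes. Its log2 change of 0.83 ± 0.40 did not pass (SE, adjusted p = 0.11 from limma), while it passed without control LSD replicate 2 (0.83, adjusted p = 0.015) and with DESeq2 (1.21, adjusted p = 0.045). Amy-d was at -0.01 ± 0.34 (SE, adjusted p = 0.98 from limma), from 2 to 12 reads in grn RNAi and 4 to 7 in control. The sum of both was 1.60 ± 0.19 in grn RNAi and 0.82 ± 0.38 in control (SD, n = 4 each).

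The midgut genes, which mark the main site of amylase expression, moved with the genotype too. Of 10 midgut genes, 10 were lower in grn RNAi on LSD and 8 on HSD, against 27.1% and 21.2% of all genes tested. With quantile normalization 10 and 6 were lower, against 19.1% and 14.5% of all genes. Their summed level ran from 2103 to 2286 normalized CPM in grn RNAi on HSD and from 1317 to 1401 on LSD, against 3168 to 3680 in control on HSD and 2679 to 2928 on LSD. With diet most of the midgut genes ran opposite to the 9, since 8 of 10 were higher and 1, Jon99Ci, was lower on HSD in larvae labelled grn RNAi. Among all genes tested, 18.3% were higher and 23.3% lower on HSD in those larvae. Some genes of other tissues fell on HSD in these larvae, among them the Malpighian tubule genes Uro (-2.53, adjusted p = 0.00055 from limma) and Irk2 (-1.16, adjusted p = 7.58e-07) and the fat body gene Rfabg (-0.36, adjusted p = 0.0062), named after their values were seen. Of the 5 tubule genes the other 2 that passed were higher, and of 5 neuron genes 3 were higher and none lower. Of 7 fat body genes 3 were measured, and the 2 beside Rfabg did not pass. Of 4 hemocyte genes 1 was higher and none lower. Jon74E, a midgut serine protease, was at -3.83 ± 0.12 on the log2 scale in grn RNAi against control on LSD (SE, adjusted p = 9.42e-12 from limma), and mex1, an enterocyte gene, was at -0.79 ± 0.05 (SE, adjusted p = 3.74e-08). Of the 5 tubule genes 1 was lower and 1 higher in grn RNAi on LSD and 2 were higher on HSD. Of 6 muscle genes 6 were lower on LSD and 1 on HSD, but 1 and 0 with quantile normalization. The 4 hemocyte genes had 2 lower on LSD and 1 on HSD, but 1 and 0 with quantile normalization. Of the 5 neuron genes 5 were higher on LSD and 2 on HSD. Higher in grn RNAi were 27.1% of all genes tested on LSD and 17.9% on HSD. The part of the midgut and other tissues in the lower levels of the 9 genes was not tested.

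Within the cluster the balance of the genes differed between groups. The sum of LManIII to LManVI was 80.2 ± 13.6 normalized CPM in grn RNAi on HSD and 571 ± 96.0 on LSD, against 439 ± 52.7 in control on HSD and 2525 ± 507 on LSD (SD, n = 4 each). LManVI divided by LManV, a ratio within a library that no factor common to its genes can change, was 0.78, 0.93, 0.93 and 0.63 in grn RNAi on HSD. It was 1.07, 1.07, 1.15 and 1.00 in grn RNAi on LSD, 1.36, 1.25, 1.25 and 1.27 in control on HSD and 1.31, 1.34, 1.41 and 1.50 in control on LSD. LManVI was thus below LManV in each grn RNAi library on HSD and above it in each control library. The ratio was lower on HSD than on LSD in larvae labelled grn RNAi, and lower in grn RNAi than in control on LSD and on HSD, each with no overlap (exact permutation test, two-sided, p = 0.029, the smallest that 4 against 4 allows, Benjamini-Hochberg adjusted p = 0.043 over 9 tests of ratios). This ratio was noticed after the values had been seen. Groups of 4 without overlap always give p = 0.029 in the exact permutation test. The adjustment over 9 tests does not count other ratios that could have been picked. These p-values are therefore no test of the ratio and add nothing to its values.

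LManIII and LManIV were small against LManV in all groups. LManIII per 100 of LManV was 3.54 ± 0.68 in grn RNAi on HSD and 8.14 ± 0.74 on LSD, 5.71 ± 1.27 in control on HSD and 10.6 ± 1.34 on LSD (SD, n = 4 each). The difference with diet in larvae labelled grn RNAi had an exact permutation p = 0.029 (adjusted p = 0.043), and each difference with genotype had p = 0.057 (adjusted p = 0.064). LManIV per 100 of LManV was 1.41 ± 0.46 in grn RNAi on HSD and 3.34 ± 0.57 on LSD, against 1.51 ± 0.26 in control on HSD and 2.18 ± 0.22 on LSD. On LSD it was higher in grn RNAi, with exact permutation p = 0.029 (adjusted p = 0.043), and on HSD the genotypes had p = 0.57. By these means LManIV was lower by less than LManV in grn RNAi on LSD. The limits given for LManVI to LManV hold for these ratios too. Their p-values are therefore no test of the ratios and add nothing to the values.

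**Figure D4:**
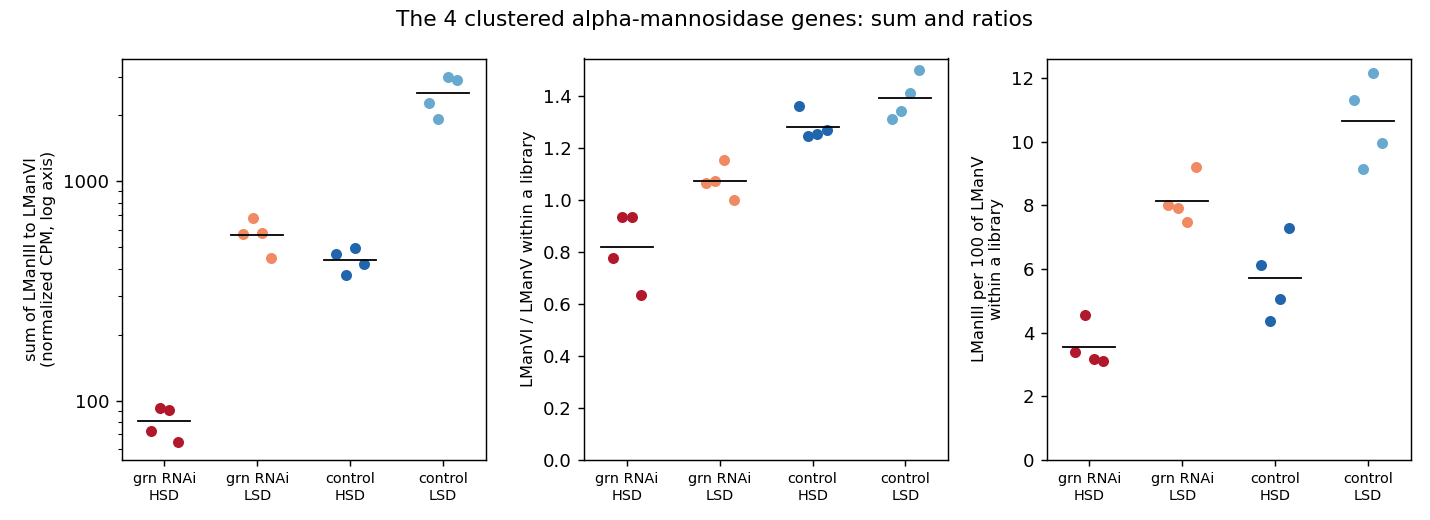
Sum of LManIII to LManVI (normalized CPM, log axis), LManVI divided by LManV, and LManIII per 100 of LManV, each point being 1 library and each line the mean of 4. The ratio of LManVI to LManV runs from 0.63 to 0.93 in grn RNAi on HSD and from 1.31 to 1.50 in control on LSD.

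Deviations of single libraries from their group means ran together for some of the genes, near each other or not. Over the 16 libraries, after each group's mean was taken out, Pearson's r was 0.91 for LManV and LManVI, but 0.40 for LManIV and LManVI, the ends of the range over the 6 pairs of the cluster. It was 0.89 for LManI and LManII and 0.60 for Amy-p and Amy-d. Over the 28 pairs from different places it ran from -0.12 for Amy-d and LManI to 0.82 for Amy-p and Amyrel, with 0.76 for Amy-p and LManIII and 0.73 for LManI and LManV. These correlations describe 16 libraries that share depth and scaling.

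The nearest measured genes on each side of the cluster showed smaller changes. Of the 5 annotated genes on each side of the LMan cluster, 2 of 10 were measured, and neither is the gene adjacent to it. The left one ends 24.6 kb before the cluster, and the right one starts 60.4 kb from the cluster's left end. The annotated genes between them and the cluster, CG45307, CG12438 and CG42710, were not measured. They are raw and SoxN, with log2 fold changes on HSD in larvae labelled grn RNAi of 0.31 ± 0.07 for raw (SE, adjusted p = 0.0034 from limma) and -0.35 ± 0.10 for SoxN (SE, adjusted p = 0.014). SoxN did not pass without grn RNAi HSD replicate 4 (-0.29, adjusted p = 0.051). On LSD both were higher in grn RNAi than in control, at 0.35 for raw (adjusted p = 0.0011) and 0.79 for SoxN (adjusted p = 2.32e-05), where the 4 cluster genes were lower.

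Of the 5 annotated genes on each side of Amy-p and Amy-d, 6 of 10 were measured, while Spn53F and an antisense RNA gene between the pair were not among the genes analysed. CG6984 was at -0.24 ± 0.05 on HSD against LSD in larvae labelled grn RNAi (SE, adjusted p = 0.0012 from limma) and Cda9, a chitin deacetylase gene, at 0.22 ± 0.08 (SE, adjusted p = 0.035). The call of Cda9 was lost without grn RNAi replicate 1 or 4 on HSD or replicate 2, 3 or 4 on LSD (0.19 to 0.24, adjusted p from 0.0502 to 0.10). GstS1 (-0.10), CG15611 (0.01), CR45273 (0.03) and CG11400 (0.29) did not pass with diet in larvae labelled grn RNAi.

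Of 15 genes of other starch, maltose and glycogen enzymes, all measured, 11 rose on HSD in larvae labelled grn RNAi and 3 fell, beside a median log2 change of 0.89. Among all genes tested, 18.3% rose and 23.3% fell. Mal-A7, a maltase gene, averaged 35.0 normalized CPM on HSD and 1.90 on LSD, a log2 change of 3.89 ± 0.12 (SE, adjusted p = 8.46e-12 from limma). The maltase genes Mal-A8 (1.90) and Mal-A1 (1.64) and AGBE, the glycogen branching enzyme gene (1.48), rose as well. The 3 that fell, named after their values were seen, were Mal-A3 (-2.10), tobi (-1.42) and Mal-A4 (-0.67). Between the genotypes, 12 of the 15 were lower in grn RNAi on LSD and 7 on HSD and none was higher, but with quantile normalization 9 were lower on LSD, and on HSD 6 were lower and 5 higher. Among all genes tested, 27.1% were lower on LSD and 21.2% on HSD, and 27.1% and 17.9% were higher. With quantile normalization 19.1% and 14.5% of all genes were lower and 41.3% and 39.5% higher.

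The alpha-mannosidases of the endoplasmic reticulum and Golgi, which trim glycans while glycoproteins are made, gave small values. Of such genes 6 were measured, while alpha-Man-Ic was not among the genes analysed. None of the 6 passed with diet in larvae labelled grn RNAi (limma, with 0 by edgeR and 1 by DESeq2). Among all genes tested, 18.3% rose and 23.3% fell. At an unadjusted p under 0.05 there were 2, Edem2, which takes part in the disposal of misfolded glycoproteins, at -0.16 ± 0.06 (SE, adjusted p = 0.055), and alpha-Man-IIb, a Golgi mannosidase, at 0.24 ± 0.11 (SE, adjusted p = 0.095). alpha-Man-Ia was at -0.17 and Edem1 at -0.15. Between the genotypes, 27.1% of all genes tested were higher in grn RNAi on LSD (41.3% with quantile normalization). On HSD, 17.9% of all genes were higher and 21.2% lower. Of the 6 mannosidase genes, 2 were higher in grn RNAi on LSD (4 with quantile normalization), and 1 was higher and 1 lower on HSD. These were alpha-Man-IIa (0.67 on LSD, 0.41 on HSD), Edem1 (0.22 on LSD) and alpha-Man-Ia (-0.41 on HSD), named after their values were seen.

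Of 25 other lysosomal genes 22 were measured, and 5 rose and 7 fell on HSD in larvae labelled grn RNAi, with a median log2 change of -0.06. Among all genes tested, 18.3% rose and 23.3% fell. Gba1a, a glucocerebrosidase gene, averaged 3.85 normalized CPM on HSD and 15.3 on LSD, a log2 change of -1.86 ± 0.12 (SE, adjusted p = 3.20e-08 from limma). CG7997, an alpha-galactosidase gene, was at -1.12 ± 0.09 (adjusted p = 1.86e-07), and CG13397, an alpha-N-acetylglucosaminidase gene, at -0.54 ± 0.08 (adjusted p = 0.00010). CG12163, a cathepsin gene, rose by 0.43 ± 0.05 (SE, adjusted p = 1.66e-05). Compared with control on LSD, 14 of the 22 were lower in grn RNAi and 1 was higher (8 and 2 with quantile normalization). The same comparison over all genes tested gave 27.1% lower and 27.1% higher (19.1% and 41.3% with quantile normalization). Compared with control on HSD, 14 of the 22 were lower and none was higher (9 and 2 with quantile normalization). Over all genes tested this gave 21.2% lower and 17.9% higher (14.5% and 39.5% with quantile normalization).

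Of 11 genes of Activin signalling and of the Mondo network, 6 rose on HSD in larvae labelled grn RNAi and none fell (0 also at an unadjusted p under 0.05 and with edgeR or DESeq2). Among all genes tested, 18.3% rose and 23.3% fell. The gene of the transcription factor Sugarbabe, sug, averaged 84.2 normalized CPM on HSD and 37.2 on LSD (1.16 ± 0.09, SE, adjusted p = 8.75e-08 from limma). daw, the gene of the Activin ligand Dawdle, averaged 48.5 and 29.5, in that order (0.71 ± 0.07, SE, adjusted p = 2.38e-06). cbt, a Krüppel-like repressor gene, rose by 0.76 and Mondo, the sugar-sensing partner of Mlx, by 0.60. Set against control on LSD, 4 of the 11 were lower in grn RNAi and 1 was higher (2 and 3 with quantile normalization). The shares of all genes tested were 27.1% lower and 27.1% higher there (19.1% and 41.3% with quantile normalization). Set against control on HSD, 1 of the 11 was higher in grn RNAi (5 with quantile normalization). The share of all genes tested that was higher there was 17.9% (39.5% with quantile normalization).

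The genes whose levels ran most like those of the cluster over the 16 libraries were, by Pearson's r with the mean standardized log2 level of LManIII to LManVI, Gba1a (0.996), CG31259 (0.990), CG6908 (0.984), Cyp4d1 (0.982) and CG11208 (0.979). Gba1a averaged 3.85 ± 0.74 normalized CPM in grn RNAi on HSD and 15.3 ± 1.86 on LSD, and 10.7 ± 1.28 in control on HSD and 32.1 ± 3.28 on LSD (SD, n = 4 each). Like the cluster it was lowest in grn RNAi on HSD and highest in control on LSD. Most like Amy-p were CG6283 (0.978), Sardh (0.977), CG3902 (0.970), CG5599 (0.969) and GlnRS (0.967). Sardh, the sarcosine dehydrogenase gene, averaged 11.7 ± 1.04 in grn RNAi on HSD and 53.0 ± 3.25 on LSD, and 8.99 ± 2.90 in control on HSD and 46.4 ± 8.28 on LSD. These were the top of 7520 genes whose mean reached 10 in some group, and the points share libraries, depth and the group differences that the genes were listed for.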

How the data were processed

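RNA-seq was measured in 16 libraries of whole larvae. Per the study's methods and processing notes, Trimmomatic trimmed the reads, TopHat2 2.1.0 placed them on the fly genome of FlyBase release 6, and HTSeq (2.7.6 in the notes) counted reads by strand, leaving out those with a mapping quality under 10. The deposited signal is the authors' normalized CPM after low genes were removed. Divided by the worth of 1 read in its library, 100% of these values came out whole (within 0.01 read), which gave back the reads. Another 19 deposited columns hold the authors' own comparisons (log2 fold changes, test scores, p-values and mean log2 values) and were not used.

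A gene was kept where 3 or more libraries of any group exceeded 1. The log2(normalized CPM + 0.5) of all 16 libraries was fitted with limma 3.58.1 in R 4.3.3 (a mean per group, variances with a trend, two-sided, Benjamini-Hochberg over 9950 genes, threshold 0.05). Alternatives on recovered reads used edgeR 4.0.16 (quasi-likelihood, 2324 genes lower and 1853 higher on HSD in larvae labelled grn RNAi) and DESeq2 1.42.0, and others changed pseudocount, filter, scaling, block and libraries. Ratios of the cluster genes were compared by exact permutation of 4 against 4 libraries. The fit was also run on data simulated with the same dispersion for all genes, which does not measure its error rates on these libraries. Gene positions and exon lengths are those of Ensembl 115, in release 6 coordinates.

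The 9 genes and all lists were chosen with earlier results of these data known. Named beside the 9 were up to 4 genes of each list with the lowest adjusted p on HSD against LSD in larvae labelled grn RNAi, the 5 nearest genes on each side, and the 5 genes most like the cluster and most like Amy-p. Others were named after their values were seen.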

Additional observations from a re-analysis of the deposited data

Results flagged for a closer look

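Gene by gene, in 36 groups of 4 libraries (9 genes in 4 groups), the gap between the highest or lowest library and the next never passed the critical value of Dixon's test, which chance alone passes in about 1 group in 20. With 4 libraries this test finds only wide gaps, and it looks at 1 gene at a time, so it says nothing of control LSD replicate 3, the highest of its group for 9 of 9 genes, or of control LSD replicate 2 and control HSD replicate 2, the lowest for 7 each.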

How the results depend on the processing

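Over 11 alternatives and 16 left-out libraries, the number of the 9 genes, Amy-d included, lower on HSD in larvae labelled grn RNAi was 8 to 9, the number lower in grn RNAi than in control was 7 throughout (LSD) and 5 to 6 (HSD). The median with diet in control larvae was -2.63 to -2.33. The number higher in grn RNAi, 0 in the fit reported, moved to 1, in each case Amy-p. On LSD it was 1 with quantile normalization, without the authors' scaling and with the replicate block, and 0 to 1 with a library left out (1 without control LSD replicate 1 or 3). On HSD it was 1 with quantile normalization, with DESeq2 and with the 8 libraries alone, and 0 to 1 with a library left out (1 without control LSD replicate 2). Amy-d changed sign between the genotypes. On HSD its log2 fold change, -0.01, was 0.31 with quantile normalization, 0.029 without the authors' scaling, 0.015 with DESeq2 and -0.16 to 0.11 with a library left out, and on LSD it was -0.56 to 0.0076 with a library left out (0.0076 without control LSD replicate 3). Amy-d could not be fitted with the filter at 5. With diet in control larvae it was -2.33, and -3.94 with DESeq2, while Amy-p was -4.16, and -5.18 with DESeq2.

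Between genotypes, scaling moved the median of all genes by 0.10 on LSD and 0.12 on HSD (quantile) and by 0.19 and 0.14 (without the authors' scaling). On LSD, 2692 genes were lower and 2699 higher in grn RNAi, against 1905 and 4105 (quantile) and 1598 and 5368 (without the authors' scaling). On HSD, 2109 were lower and 1785 higher, against 1442 and 3930 and 1392 and 4209. The replicate numbers gave no consistent pairing of the libraries: same-numbered deviations correlated at -0.51 to 0.80, and not every library correlated best with its own number. Across diets, replicates 2 and 3 did so in larvae labelled grn RNAi (0.62 and 0.80) and in control larvae (0.46 and 0.55), while replicates 1 and 4 did not. The replicate block left 2283 genes lower and 1792 higher with diet in larvae labelled grn RNAi, against 2323 and 1823; Cda9 no longer passed with diet (adjusted p = 0.064) and Amy-p passed between genotypes on LSD (0.034). Depth limits Amy-d on HSD, at 2 to 12 reads a library. Other genes were also low in grn RNAi on HSD, where LManIV had 12 to 23 reads a library, Amyrel 15 to 27 and LManIII 37 to 54. The ratios of LManIII and LManIV to LManV in that group rest on these few reads.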

Other observations

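CR45273, a short gene close to Amy-d, was lower in grn RNAi on both diets although it did not pass with diet. It averaged 0.85 normalized CPM in grn RNAi and 5.04 in control on HSD (log2 fold change -2.05 ± 0.17, SE, adjusted p = 5.00e-07 from limma), and 0.82 in grn RNAi and 5.79 in control on LSD (-2.24 ± 0.17, SE, adjusted p = 9.29e-08). It was named because it is among the 5 nearest genes to the right of Amy-d.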
